A study of Mus musculus domesticus and Mus musculus domesticus x Mus musculus castaneus and Mus musculus castaneus with 27 samples.

Results

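Cytosolic ribosomal protein genes were followed across stem cells and motor neurons of several mouse strains. The genes taken were the protein-coding genes of the count table whose symbol has the form of a ribosomal protein (Rpl or Rps with a number, Rplp0, Rplp1, Rplp2 or Rpsa) and whose mean over 20 libraries reached 10 CPM (read counts put on the same scale in every library). Such a symbol was held by 77 genes and 75 reached the level, out of 27071 gene identifiers in the table and 10467 at that level. Of the 75 genes, 44 belong to the large and 31 to the small ribosomal subunit. Beside their symbols, the genes were selected on 1 measured value, the mean CPM over all libraries, which is therefore no result. Just above it lay Rpl39l with 10.57 CPM, Rpl10l with 14.25 CPM and Rpl22l1 with 41.05 CPM, and just below it Rpl3l with 0.804 CPM and Rpl24 with 0.234 CPM. Rpl39l and Rpl10l reached the level through the hybrid stem cells, where they were highest, so their excess there is a description and supports nothing.

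RNA sequencing of polyadenylated RNA was done on pluripotent stem cells (PSC), which can form every tissue of the body, and on motor neurons (MN), the nerve cells that drive muscle, differentiated from such cells in culture. BL6 (C57BL/6) gave 2 PSC and 7 MN libraries, CAST (CAST/EiJ, an inbred strain of the castaneus subspecies) gave 2 PSC libraries and 1 MN library, and 129 (129S6/SvEv) gave 2 MN libraries. First-generation hybrids of the domesticus and castaneus subspecies gave 2 PSC and 3 MN libraries labelled CAS129 and 1 MN library labelled 129CAS. The labels name no transgene and no agent for any group, do not describe how the neurons were made or sorted, and do not say how many lines or clones stand behind a group, which strain was the mother of a hybrid, or whether replicates were separate cultures. The p-values therefore rest on the scatter among these libraries alone, and that scatter may be technical.

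A ribosome is built from ribosomal RNA and a single copy of most of its proteins, so the genes of these proteins are transcribed at high and matched levels in growing cells. Their messages begin with a C followed by a run of pyrimidines, the terminal oligopyrimidine (TOP) motif, through which the mTOR pathway and the RNA-binding protein Larp1 govern their translation. Stem cells divide fast and make many ribosomes, while neurons have left the cell cycle and send ribosomal protein messages into their axons as well as keeping them in the cell body.

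The starts of the annotated transcripts are printed because the TOP run is the best known regulatory sequence that this gene family shares. They are the first 24 bases of RNA-sense DNA, 5′ to 3′, of GENCODE M21 transcripts on GRCm38, with the run (a C and at least 4 further pyrimidines, starting within the first 20 bases) in capitals. Rpl4 (chromosome 9, plus strand, start 64173375), Rpl32 (chromosome 6, minus strand, start 115808747), Rps2 (chromosome 17, plus strand, start 24720110) and Rps24 (chromosome 14, plus strand, start 24490718) hold the run from base 1. Rpl22 (chromosome 4, plus strand, start 152325853) and Rpl22l1 (chromosome 3, plus strand, start 28805436), and Rps27 (chromosome 3, minus strand, start 90213651) and Rps27l (chromosome 9, plus strand, start 66946086), are 2 pairs of paralogs described further on. Gene positions in the text are on the same build.
Rpl4: CTTTTCCTgtgggagcagccgggt
Rpl32: CTTCCTTCTTCCTCggcgctgcct
Rps2: CTTCTTCTTCTTCgggagaacacg
Rps24: CTCTTTTCCTCCTCTCCagctccg
Rpl22: gCCCCCCTCCCTTTCTgcctcctc
Rpl22l1: gttgcgtatttcgcacgctctgcg
Rps27: gCTCCTTTCCggcggtgacgacct
Rps27l: gCCTCTatcccggaagttgctgag
Of the 75 genes, 11 (14.67%) had such a run from the first base of the annotated transcript, against 410 (2.235%) of 18347 protein-coding genes of the table. A run starting anywhere in the first 20 bases was held by 38 (50.67%) against 28.28%. Annotated starts can lie upstream or downstream of the base where transcription begins, so a transcript without a run in this window may still carry one.

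Libraries held 4.50 M to 44.57 M counts. The 129 MN libraries, with 41.75 M and 44.57 M, and the 129CAS MN library, with 25.69 M, were the deepest. PSC and MN RNA came from different extraction kits, per the labels' protocols, so the kit and the cell type cannot be told apart. Of 10 motor neuron and neuronal markers all 10 were higher in MN than in PSC, and their summed level was 961 to 11760 CPM in MN and 62.01 to 324.6 CPM in PSC. Of 10 fibroblast markers all 10 were higher in MN too, at 17500 to 57850 CPM against 2170 to 5723 CPM in PSC. None was at 0 in any group. Both counts are from the fit of the genotypes together, in which 5634 of 15596 genes tested were higher. Within BL6 9 markers of each list were called higher, and within CAS129 8 neuronal and 9 fibroblast markers. In CAST, with 1 MN library, the median log2 fold changes were 7.64 for neuronal and 1.85 for fibroblast markers. The part of fibroblast RNA in the results below was not tested. The BL6 PSC libraries stood apart from each other: 68 of the 75 ribosomal protein genes were higher in replicate 2 than in replicate 1, by a median of 0.91 on the log2 scale. In CAST PSC replicate 2 was higher for 73 of the 75, by a median of 0.54. The same counts were not made over all genes, so they are not shown to be a trait of this family. Near copies are a further limit: 70 of the 75 genes have at least 1 other gene or pseudogene in the annotation that matches 95% of the bases over 80% of their coding sequence, with a median of 5 and up to 57. Only 10 of these 534 copies have an identifier in the table, and the sources used here do not state how reads that match both were counted.

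The 75 genes together took less of the transcriptome in MN than in PSC of the same genotype. In BL6 PSC they held 7.35% and 11.8% of all counts, in CAST PSC 6.75% and 8.96%, and in CAS129 PSC 10.2% and 11.7%. In MN the share was 2.56% ± 0.452 in BL6 (SD, n = 7, range 1.80% to 3.05%) and 4.15% ± 0.359 in CAS129 (SD, n = 3, range 3.73% to 4.39%). The single CAST MN library held 1.68%, the 129 MN libraries 1.28% and 1.56%, and the single 129CAS MN library 1.60%. Every PSC library lay above every MN library, and the CAS129 MN libraries lay above all other MN libraries. In such bulk samples, fewer cells of a type and less RNA per cell cannot be told apart.

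**Figure D1:**
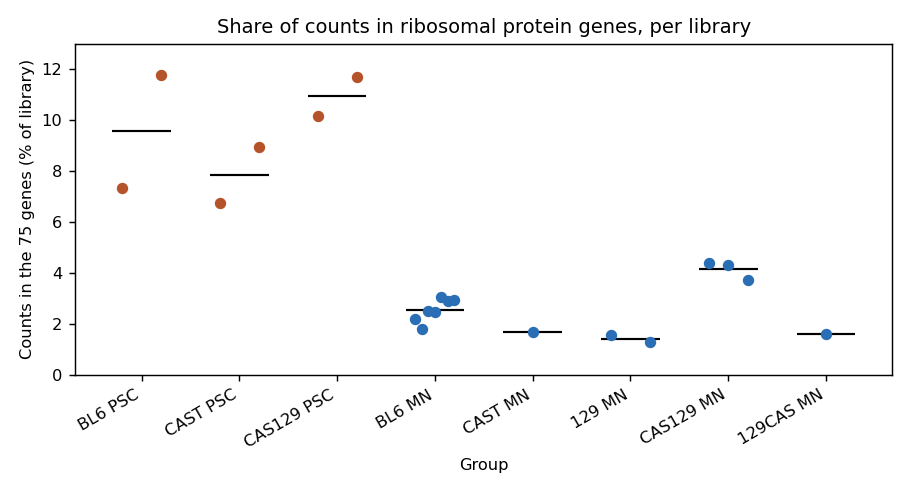
Percent of each library's counts that falls in the 75 ribosomal protein genes (y axis), by group (x axis), with 1 point per library. The 6 PSC libraries sit between 6.75% and 11.8%, and the 14 MN libraries between 1.28% and 4.39%.

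Levels of different genes were compared per kilobase of coding sequence over the genes that were measured evenly, which here means that a gene was at or above 5% of the highest group of its cell type in all 8 groups. This left 53 of the 75. Genes just above the limit remain among them, such as Rps15 at 5.26% in CAST MN and Rpl35 at 6.71% in CAS129 PSC. Their median was 2644 CPM per kb in BL6 PSC, 2218 in CAST PSC and 3320 in CAS129 PSC, and 713 in BL6 MN, 433 in CAST MN, 402 in 129 MN, 1535 in CAS129 MN and 524 in 129CAS MN. Rplp1, a protein of the stalk that recruits elongation factors, was the highest of the 53 per kb in 7 groups (7461 in BL6 PSC and 2021 in BL6 MN), and Rplp0, the base of the stalk, in 129CAS MN (1003). The SD of log2 CPM per kb over the 53 genes was 0.63 in BL6 PSC, 0.46 in BL6 MN and 0.96 in CAS129 PSC, where the 53 ran from 153.9 CPM per kb (Rpl35) to 6794 (Rplp1). These are levels of different genes in the same libraries and not replicates.

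Nearly the whole family was lower in MN than in PSC. When the 3 genotypes with both cell types were fitted together, allowing each its own level, 74 of the 75 genes fell and Rpl22l1 was not called, with a log2 fold change of -0.66 (SE 0.51, edgeR adjusted p = 0.25). The share of all 15596 genes tested that fell was 38.5%. The median log2 fold change of the 75 was -1.89 (quartiles -2.09 and -1.65), against -0.05 for all genes tested. By subunit, the median was -1.95 for the 44 large and -1.85 for the 31 small subunit genes. No gene was higher with edgeR, 0 were higher at an unadjusted p under 0.05, and 0 with DESeq2.

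Stalk and core proteins of the large subunit were among the most abundant messages. Rplp0 (chromosome 5, 115559467 to 115563727) was at 2653 and 5562 CPM in BL6 PSC and at 731 to 1374 CPM in BL6 MN, with a median of 1252. In CAST it was at 1594 and 2332 CPM in PSC and 442 CPM in MN, and in CAS129 at 3969 and 4624 CPM in PSC and 2939, 2755 and 2371 CPM in MN. PSC and MN did not overlap within any of the 3 genotypes, but in CAS129 the change of -0.68 (SE 0.31) missed the threshold (edgeR adjusted p = 0.077). It was called with RLE scaling (-0.94, edgeR adjusted p = 0.016), upper-quartile scaling (0.034), DESeq2 (0.0053), a filter of 5 CPM (0.029), without the genes at 0 in the hybrids (0.026) and without CAS129 MN replicate 1 (0.044). Rpl4 (chromosome 9, 64173375 to 64178666), a protein that lines the exit tunnel, had the highest mean of the family over the 20 libraries and was named for that after its values were seen. It was at 2607 and 4893 CPM in BL6 PSC and 555 to 957 CPM in BL6 MN. Rpl3 (chromosome 15, 80077791 to 80091868), a protein near the peptidyl transferase centre, fell by 2.26 on the log2 scale (SE 0.16, edgeR adjusted p = 2.5e-09). It was at 2166 and 3763 CPM in BL6 PSC and 426 to 640 CPM in BL6 MN, again without overlap.

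Rpl5 and Rpl11, which bind Mdm2 and stabilise p53 when ribosome assembly fails, could be compared only in part. Rpl5 (chromosome 5, 107900502 to 107909005) was at 1173 and 921 CPM in BL6 PSC, 275 to 501 CPM in BL6 MN, 1462 and 1972 CPM in CAST PSC and 301 CPM in CAST MN. Rpl11 (chromosome 4, 136028265 to 136053428) was at 903 and 1596 CPM in BL6 PSC, 241 to 365 CPM in BL6 MN, 889 and 1304 CPM in CAST PSC and 241 CPM in CAST MN. Rpl11 was at 0 in all 6 hybrid libraries, so its fall of 2.14 on the log2 scale (SE 0.20, edgeR adjusted p = 3.8e-07) rests on BL6 and CAST. Rpl13a, Rpl27 and Rps27 were at 0 in all hybrid libraries as well.

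Among small subunit genes, Rps6 (chromosome 4, 86854660 to 86857412), the substrate of the S6 kinases downstream of mTOR, was at 1015 and 1554 CPM in BL6 PSC and 237 to 428 CPM in BL6 MN. In CAS129 it was at 1895 and 2095 CPM in PSC and 948, 898 and 779 CPM in MN. Rps19 (chromosome 7, 24884371 to 24889806), the gene most often mutated in Diamond-Blackfan anaemia, was at 749 and 1424 CPM in BL6 PSC and 199 to 379 CPM in BL6 MN. Rps4x (chromosome X, 102184941 to 102189394) fell by 1.5 on the log2 scale (SE 0.18, edgeR adjusted p = 7.8e-07). In these 3 genes, too, every BL6 MN library lay below both BL6 PSC libraries.

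The largest log2 fold changes were those of Rpl10l, at -4.96, and Rpl39l, at -3.06, which are given as a description, since both genes entered through their high level in CAS129 PSC, a group of this fit. They were followed by Rps10, which fell by 2.80 (SE 0.33, edgeR adjusted p = 6.6e-07), Rpl13a by 2.48 (SE 0.23) and Rpl36 by 2.28 (SE 0.22). In BL6 MN, Rps10 was at only 1.14 to 2.89 CPM and Rpl13a at 9.65 to 15.7 CPM, and Rpl13a had no count in the hybrids. Rpl10l and Rpl39l are retained copies of Rpl10 and Rpl39 known for their use in male germ cells, where the X chromosome that carries the parent genes is silenced. The smallest called falls were those of Rps27l at -0.83 (SE 0.22, edgeR adjusted p = 0.0029) and Rpl39 at -1.12 (SE 0.41, edgeR adjusted p = 0.02). The call of Rpl39 was lost when BL6 PSC replicate 1 (edgeR adjusted p = 0.29), CAST MN replicate 1 (0.09) or CAS129 PSC replicate 2 (0.072) was left out.

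Within single genotypes the fall held for most of the genes. In BL6, 73 of the 75 fell (34.2% of all genes tested), with a median of -1.91. All 7 MN libraries lay below both PSC libraries for 72 genes, an arrangement found in 31.9% of all genes tested, and the exceptions were Rpl22l1, Rpl39 and Rps27l. In CAST, 74 fell (25.7% of all genes tested), with a median of -2.37. The single CAST MN library is assumed there to vary like the other groups. In CAS129, 60 fell (23.9% of all genes tested), with a median of -1.13, or -1.18 when the 5 genes at or under the floor of 3 counts per group in both cell types are set aside. Every CAS129 MN library lay below both CAS129 PSC libraries for 68 genes, as it did for 31.0% of all genes tested.

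The median fall in BL6 depended on which stem cell library was kept: it was -2.31 without BL6 PSC replicate 1 and -1.48 without replicate 2. The number of genes that fell in BL6 stayed at 72 to 74 whichever library was left out. Over the 53 evenly measured genes the difference of log2 levels between MN and PSC was below 0 for all 53 in each of the 3 genotypes. It ran from -2.53 for Rpl36 to -0.56 for Rps27l in BL6 and from -2.80 to -1.85 in CAST. In CAS129 it ran from -1.69 for Rpl22 to -0.28 for Rps27l. Of all 15846 genes tested, the fitted change was below 0 for 7516 in BL6, 7749 in CAST and 6791 in CAS129.

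**Figure D2:**
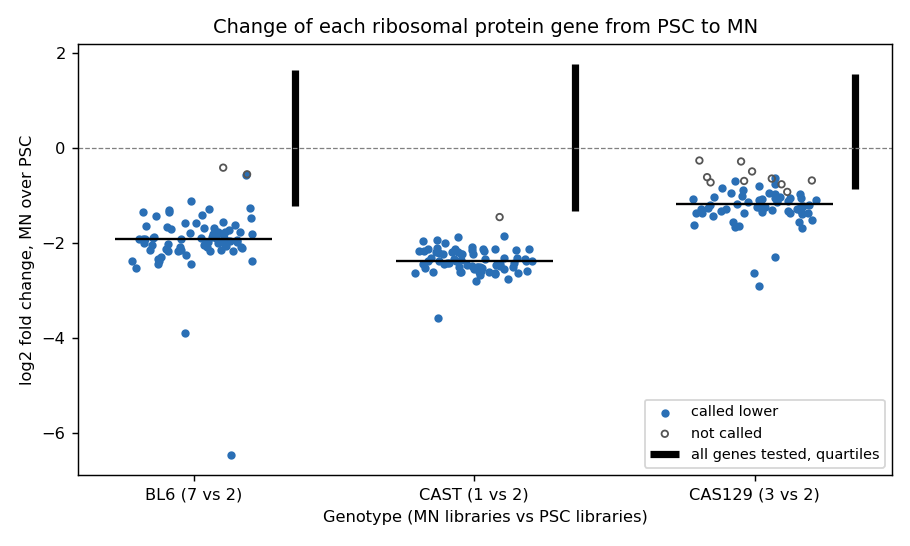
Fitted log2 fold change of each ribosomal protein gene, MN over PSC (y axis), in 3 genotypes (x axis, with the number of MN and PSC libraries). Each point is a gene with counts in both cell types (75, 73 and 70 genes), filled where it was called lower, thin lines are medians of the points (-1.91, -2.37 and -1.18) and thick bars are the quartiles of all genes tested. All 75 points of BL6 and all 73 of CAST lie below 0.

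Genes that build and assist ribosomes fell with them. Of 45 ribosome biogenesis genes, which transcribe, cut and fold ribosomal RNA in the nucleolus, all 45 fell, with a median of -1.55. Npm1, a nucleolar chaperone, fell by 1.97 (SE 0.31) and Ncl, the nucleolin that coats nascent ribosomal RNA, by 1.49 (SE 0.26) on the log2 scale. Of 30 translation factors and other TOP messages 26 fell, with a median of -1.33. Among these, Pabpc1, which binds the poly(A) tail, fell by 1.70 (SE 0.18) and Tpt1 by 0.63 (SE 0.18), while Eef1a2, the neuron and muscle form of an elongation factor and the only gene of the list that was higher, was 6.83 higher on the log2 scale (SE 0.45, edgeR adjusted p = 9.5e-10). Ribosome components outside the symbol rule also fell, Rack1 by 1.73 (SE 0.19) and Fau by 1.94 (SE 0.26). The fall of Fau rests on BL6, since it was at 0.1109 and 0.2505 CPM in CAST PSC and at 0 in CAST MN, 129 MN and all hybrid libraries.

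Genes tied to the control of ribosomal protein synthesis, among them mTOR pathway genes, Myc, Mdm2 and Trp53, did not move as a block. Of 15 measured, 5 fell, Myc was higher and 9 were not called, with a median of -0.27, and a fall was called for 38.5% of all genes tested. Larp1, which holds TOP messages, fell by 0.51 (SE 0.15, edgeR adjusted p = 0.0068) and Cnbp, a protein that binds TOP messages, by 1.39 (SE 0.17). The log2 fold change was -2.47 for Eif4ebp1, -2.42 for Trp53 and -1.64 for Eif4ebp2, named here after their values were seen. Mtor, Rptor, Rheb, Tsc1, Tsc2, Rps6kb1 and Rps6kb2 were among those not called. Myc was 1.56 higher on the log2 scale with the genotypes fitted together (SE 0.54, edgeR adjusted p = 0.015). Within single genotypes the highest log2 fold change of any of the 15 was 1.02 in BL6, 1.40 in CAST and 3.17 in CAS129. The proteins of the mitochondrial ribosome fell in 67 of 76 cases, with a median of -1.21 and no gene higher, Mrpl17 by 1.34 (SE 0.13) and Mrpl12 by 1.3 (SE 0.14). All 8 cell cycle genes and all 9 pluripotency markers measured fell as well, and their part in the fall of the ribosomal protein genes was not tested.

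By the test of the difference itself, the fall was smaller in CAS129 than in BL6 for 8 of the 75 genes. That is a smaller share than the 13.7% of all genes tested that were called in that direction. Among the 8 was Rpl10l, whose difference of 3.55 is a description, since the gene entered through its level in CAS129 PSC. The difference of the log2 changes was 2.77 for Rps10 (SE 0.42, edgeR adjusted p = 0.00041), 1.42 for Rps21 (SE 0.40), 1.37 for Rps26 (SE 0.42) and 1.25 for Rpl36 (SE 0.41). The BL6 change of Rps10 comes from low levels, 15.8 and 31.4 CPM in PSC and 1.14 to 2.89 CPM in MN. The median difference of the 75 genes was 0.80, and that of all genes tested 0.26. With RLE scaling the median of all genes was 0.00, the share of calls that were higher went from 75.1% to 53.0%, and 2 ribosomal protein genes were called. This count rested on single libraries: it was 39 without BL6 PSC replicate 1 and 2 without BL6 PSC replicate 2, and 2 to 5 without 10 of the other 12 libraries. The other 3 called genes were Rpl7a, Rpl8 and Rps7, named here after their values were seen. In the other direction 0 genes differed with edgeR, 0 at an unadjusted p under 0.05 and 0 with DESeq2, and 1 without BL6 PSC replicate 1.

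Other marker lists moved with this difference. The summed level of 9 pluripotency markers was 416 to 1089 CPM in the CAS129 MN libraries, against 45.3 to 110 CPM in BL6 MN, 44.7 in CAST MN, 116 and 121 in 129 MN and 75.2 in 129CAS MN, and 4555 to 5486 CPM in the PSC libraries. Pou5f1 was at 0 in the CAST MN and 129CAS MN libraries, and no marker was at 0 throughout CAS129 MN. The 8 cell cycle genes summed to 569 to 1178 CPM in CAS129 MN and to 101 to 200 CPM in BL6 MN, with Pcna at 0 in every hybrid library. The neuronal markers summed to 961 to 1315 CPM in CAS129 MN and 3823 to 11760 CPM in BL6 MN, with Map2 at 0 in every hybrid library. Their part in the higher level of the ribosomal protein genes in CAS129 MN was not tested.

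Paralogs that can take each other's place in the ribosome were examined as pairs. The first 60 coding bases of 3 pairs are shown with the bases that differ in capitals, because reads of such pairs must be told apart by these differences.
Rpl10: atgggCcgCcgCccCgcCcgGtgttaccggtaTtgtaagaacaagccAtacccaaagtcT
Rpl10l: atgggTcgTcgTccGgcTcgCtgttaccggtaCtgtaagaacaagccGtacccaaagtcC
Rpl39: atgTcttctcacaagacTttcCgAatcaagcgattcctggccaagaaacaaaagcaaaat
Rpl39l: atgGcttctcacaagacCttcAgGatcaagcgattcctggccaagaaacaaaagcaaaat
Rps27: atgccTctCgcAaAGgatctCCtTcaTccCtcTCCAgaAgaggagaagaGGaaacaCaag
Rps27l: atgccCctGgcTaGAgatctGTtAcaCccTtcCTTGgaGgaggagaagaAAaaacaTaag
Over the whole coding sequence the identity was 84.74% for Rpl10 and Rpl10l, with 23 bases as the longest identical run, 84.97% for Rpl39 and Rpl39l, with 38 bases, 76.19% for Rps27 and Rps27l, with 11 bases, and 66.93% for Rpl22 and Rpl22l1, with 26 bases.

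Rpl22l1, the paralog that Rpl22 holds down in mice, stood out by its spread between replicates. Rpl22l1 (chromosome 3, 28805436 to 28807424) was at 107 and 6.82 CPM in BL6 PSC, 92.5 and 134 CPM in CAST PSC and 2.19 and 49.5 CPM in CAS129 PSC. In MN it was at 29.9 to 60.3 CPM in BL6 (median 40.9), 41.6 in CAST, 1.22 and 1.15 in 129, 27.0, 19.9 and 17.2 in CAS129 and 13.4 in 129CAS. In BL6 and in CAS129 the MN values lay between the 2 PSC values. The direction of its change between MN and PSC therefore followed the library left out: in BL6 it was -0.41 (SE 0.70, edgeR adjusted p = 0.62) over all libraries and 2.64 (edgeR adjusted p = 0.02) without PSC replicate 1, and in CAS129 it was -0.26 (SE 0.85) and 3.01 (edgeR adjusted p = 0.036) without PSC replicate 2. Rpl22 (chromosome 4, 152325742 to 152334071) was at 517 and 912 CPM in BL6 PSC and 1065 and 1262 CPM in CAS129 PSC, and at 139 to 205 and 334 to 380 CPM in MN of these genotypes. Per kb of coding sequence Rpl22l1 made up 15.7% to 25.1% of the pair in BL6 MN, 29.0% in CAST MN and 1.14% to 1.23% in 129 MN.

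Rpl39 (chromosome X, 37082520 to 37085402) showed the same kind of spread in BL6 PSC, with 311 CPM in replicate 1 and 49.98 CPM in replicate 2, around the 80.8 to 144 CPM of BL6 MN. Its change in BL6 was -0.55 (SE 0.46, edgeR adjusted p = 0.30), and 1.3 (edgeR adjusted p = 0.03) without PSC replicate 1. In the hybrids Rpl39 was at 1.57 and 8.02 CPM in CAS129 PSC, 1.12 to 3.28 CPM in CAS129 MN and 1.24 CPM in 129CAS MN. Rpl39l (chromosome 16, 10170226 to 10174911) was at 86.0 and 32.5 CPM in CAS129 PSC and 14.3, 10.5 and 4.10 CPM in CAS129 MN, against 6.66 to 11.98 CPM in the other PSC libraries, 0.528 to 2.19 CPM in BL6 MN and 0 in CAST MN. The share of Rpl39l in the pair was 80.2% and 98.2% in CAS129 PSC, 76.2% to 83.2% in CAS129 MN and 16.7% in 129CAS MN, and no more than 11.8% in any library of the inbred strains.

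Rpl10l (chromosome 12, 66283379 to 66284401), a gene without introns in its coding sequence, was at 99.7 and 78.8 CPM in CAS129 PSC, 10.6 and 16.5 CPM in BL6 PSC and 8.99 and 7.77 CPM in CAST PSC. In MN it was at 15.8, 12.8 and 7.09 CPM in CAS129 and at 0 to 0.702 CPM in every other library. Between CAST PSC and the CAST MN library, where it had no read, Rpl10l was at least 25.85-fold lower in MN, taking 3 counts as the floor. Even where it was highest it made up 4.84% of its pair with Rpl10, which was at 1961 and 2137 CPM in CAS129 PSC. Rps27l (chromosome 9, 66946086 to 66949516), a target of p53, had the smallest BL6 change among the 53 evenly measured genes, at -0.56 (SE 0.24, edgeR adjusted p = 0.047), a call that was lost without BL6 PSC replicate 1 (0.29) or BL6 MN replicate 1 (0.076). Its partner Rps27 (chromosome 3, 90212522 to 90213651) was at 561 and 895 CPM in BL6 PSC and 146 to 284 CPM in BL6 MN. In 129 MN Rps27 was at 0.959 and 0.821 CPM, so Rps27l was 98.6% and 98.8% of the pair. In the hybrids Rps27 had no count and is taken as not measured, so no share of the pair is given there.

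**Figure D3:**
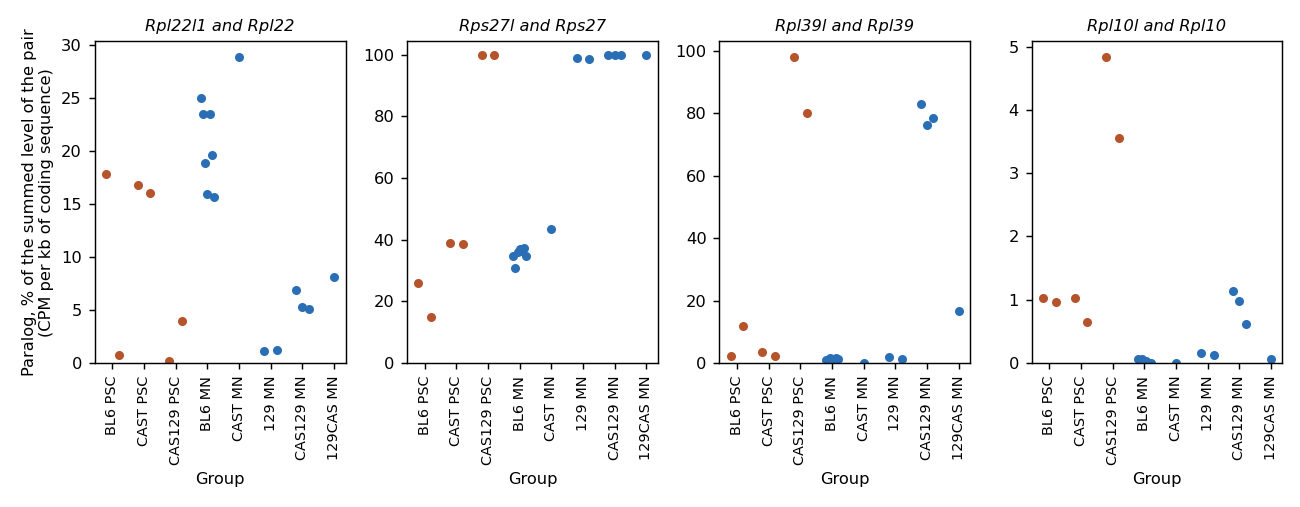
Share of Rpl22l1, Rps27l, Rpl39l or Rpl10l in the summed level of its pair (y axis, percent of CPM per kb of coding sequence), by group (x axis), for 4 pairs, with 1 point per library and a separate scale in each panel. Rpl39l lies at 76.2% to 98.2% in CAS129 and at no more than 11.8% in the inbred strains, and Rps27l lies near 100% in 129 MN. The points of Rps27l at 100% in the hybrids come from Rps27 having no count there and are no measured share.

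Between BL6 and CAST stem cells most of the family did not differ past the test. In CAST PSC 2 genes were higher than in BL6 PSC (5.74% of all genes tested) and 3 lower (4.81%). Rpl13a, a large subunit protein also known for silencing inflammatory messages, was 4.89 higher on the log2 scale (SE 0.53, edgeR adjusted p = 0.0019), with 43.0 and 98.1 CPM in BL6 PSC against 1614 and 2493 CPM in CAST PSC. Rps10 was 4.36 higher (SE 0.46, edgeR adjusted p = 0.001), with 15.8 and 31.4 CPM against 383 and 566 CPM. Rpl38, needed for the translation of certain Hox messages, was lower by 6.24 (SE 0.44, edgeR adjusted p = 0.00019), with 427 and 788 CPM in BL6 PSC against 7.32 and 8.39 CPM in CAST PSC. Rps15 was lower by 3.41 (SE 0.49, edgeR adjusted p = 0.0046), with 895 and 1792 CPM against 82.4 and 166 CPM. The groups did not overlap in any of these 4 genes, which were named because they were called. How many of all genes did not overlap was not counted, so with 2 libraries a group this adds little to the calls. The call of the third lower gene, Rps26, was lost without BL6 PSC replicate 2 (-1.05, edgeR adjusted p = 0.13) or either CAST PSC library (0.27 and 0.16).

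Rps10, Rpl13a, Rpl38 and Rps15 lay apart in neurons as well. In the CAST MN library, against 7 BL6 MN libraries, 2 genes were higher (5.76% of all genes tested) and 15 lower (6.58%), with a median of -0.72 against -0.05 for all genes. Rps10 was at 91.8 CPM against 1.14 to 2.89 CPM (median 1.37), Rpl13a at 396 CPM against 9.65 to 15.7 CPM, Rpl38 at 0.648 CPM against 115 to 267 CPM, and Rps15 at 34.5 CPM against 226 to 366 CPM. Without BL6 MN replicate 2, which had the lowest share of counts in these genes of the BL6 MN libraries, the number lower was 54, and it was at least 13 whichever BL6 MN library was left out. With the single CAST library no spread within CAST MN could be measured.

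In 129 MN 61 of the 75 genes were lower than in BL6 MN (18.1% of all genes tested) and 2 higher (18.3%), with a median of -0.90 against 0.00 for all genes. The number lower was 28 without 129 MN replicate 2. Rpl38 was at 0.187 and 0.149 CPM, a fall of 10.19 on the log2 scale (SE 0.57, edgeR adjusted p = 2.2e-08). Rps27 was lower by 8.04 (SE 0.38). Rpl34 was at 3.46 and 3.01 CPM in 129 MN and 160 to 275 CPM in BL6 MN, lower by 6.27 (SE 0.27, edgeR adjusted p = 2.8e-09). The 2 higher genes were again Rps10, at 174 and 152 CPM, and Rpl13a, at 232 and 181 CPM. The comparisons of CAST, 129 and CAS129 with BL6 share the BL6 libraries, so the BL6 level enters each of them.

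The hybrids held the most uneven set. In CAS129 PSC 7 genes were higher (8.72% of all genes tested) and 19 lower (17%) than in BL6 PSC. Against CAST PSC 6 were higher (2.27%) and 16 lower (11.7%). Of the 71 genes with a count in the hybrids, 15 and 12 were lower. Rpl10l and Rpl39l were among the higher genes in both comparisons. They entered the list through this group, so their calls support nothing. With upper-quartile scaling, which moved the median of all genes by 0.20 and the share of higher calls from 16.2% to 29.0% in the comparison with CAST, 11 genes were higher there. Leaving out each library in turn gave 2 to 4 higher than in CAST PSC, and 4 higher than in BL6 PSC without either CAS129 PSC library. Rpl11, Rpl27, Rps27 and Rpl13a had no count in any hybrid library. They are therefore taken as not measured in the hybrids, and no fold is given for them. Of all 10467 genes at the same mean level, 4.00% had no count in any hybrid library, and of the 75 genes 5.33%. Rpl36a was nearly absent as well, with 0.470 CPM in CAS129 PSC replicate 1, 0.206 CPM in 129CAS MN and 0 in the other hybrid libraries. At the other end, Rps10 was at 1582 and 2107 CPM in CAS129 PSC, 6.33 higher than in BL6 PSC on the log2 scale (SE 0.50, edgeR adjusted p = 5.5e-05). No cause of these differences was tested.

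In CAS129 MN 42 genes were higher than in BL6 MN (27.0% of all genes tested) and 21 lower (32.5%). The median was 0.70 against -0.08 for all genes. Of the 71 genes with a count in the hybrids 17 were lower, and the median of the 71 was 0.87. Rpl10l and Rpl39l are among the 42 and support nothing, as they entered the list through the hybrids. The higher ones included Rps10 with 892, 861 and 812 CPM, 8.96 higher on the log2 scale (SE 0.20, edgeR adjusted p = 9.3e-12), Rps4x with 1545, 1486 and 1347 CPM against 337 to 571 CPM, and Rps19 with 932, 960 and 786 CPM. Besides the genes without counts, which are taken as not measured there, the lower ones included Rplp2, the partner of Rplp1 in the stalk. Rplp2 was at 6.80, 6.57 and 3.36 CPM against 175 to 356 CPM. Rplp1 was at 1232, 1106 and 952 CPM against 478 to 818 CPM. The single 129CAS MN library was below CAS129 MN in 60 genes (15.7% of all genes tested), and the other 15 were not called. The median was -1.37, or -1.46 with the 4 genes without hybrid counts left out and Rpl36a at its floor. The lowest there relative to CAS129 MN were Rpl39l, at 0.247 CPM, Rpl10l, at 0.329 CPM, and Rpl38, at 0.206 CPM.

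Under 5% of the highest group of the same cell type lay 2 genes in BL6 PSC, 1 in CAST PSC and 13 in CAS129 PSC, and 3 in BL6 MN, 3 in CAST MN, 7 in 129 MN, 14 in CAS129 MN and 17 in 129CAS MN. Of all genes at the same mean level the shares under 5% were 0.861%, 1.19% and 7.78% of 10448 genes in these PSC groups and, of 10467 genes in these MN groups, 1.26%, 1.73%, 2.57%, 6.52% and 8.24%. The MN counts include Rpl10l in BL6, CAST, 129 and 129CAS, and Rpl39l in CAST and 129CAS. Both were highest in CAS129 MN and entered the list through the hybrids, so their low level elsewhere is a description. Rpl11, Rpl13a, Rpl27 and Rps27 are in the hybrid counts only as genes not measured there. All 13 of CAS129 PSC were among the 14 of CAS129 MN, and they included Rpl11, Rpl13a, Rpl27, Rpl36a, Rpl38, Rpl39, Rplp2 and Rps27. All 14 were among the 17 of 129CAS MN, which also included Rpl10l and Rpl39l. In 129 MN the low genes were Rpl10l, Rpl13, Rpl22l1, Rpl34, Rpl38, Rps20 and Rps27. In all, 22 genes were low in at least 1 group. The median number of near copies was 4 for the low and 6 for the other genes in CAS129 MN.

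**Figure D4:**
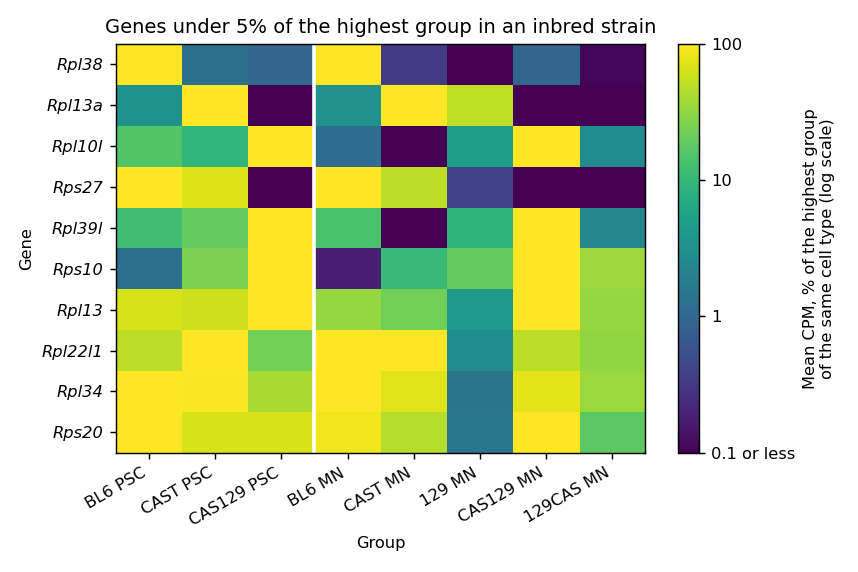
Mean CPM of the 10 genes that were under 5% of the highest group in at least 1 of the 5 inbred groups (rows), as a percentage of the highest group of the same cell type (color, log scale), in 3 PSC and 5 MN groups (columns, split by a white line). Rpl13a, Rpl38 and Rps27 lie under 5% in every hybrid column, where Rpl13a and Rps27 have no count. The 129 MN column is low in 7 rows, among them Rpl34 and Rpl22l1, which are not low in the hybrids. Rpl10l and Rpl39l are low beside CAS129 MN and entered the list through the hybrids, so their rows are a description.

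Genotype differences that were large in stem cells were large in neurons too, although the 2 cell types came from separate libraries. Across the 75 genes the difference of log2(mean CPM + 1) between CAS129 and BL6 in PSC and in MN had a Pearson r of 0.986 and a Spearman rho of 0.924, and the difference between CAST and BL6 an r of 0.941 and a rho of 0.612. The 75 include the 4 genes with no count in the hybrids, whose differences between CAS129 and BL6 only repeat the BL6 level. Over the 53 evenly measured genes, which leave them out, r was 0.913 and 0.840. These still include genes far from 0, such as Rpl35 for CAS129 (-3.875 in PSC and -3.029 in MN) and Rps15 for CAST (-3.427 and -3.112). Genes are not independent replicates, and the points share their libraries and any property of the gene that acts on counting, so these values are descriptions.

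**Figure D5:**
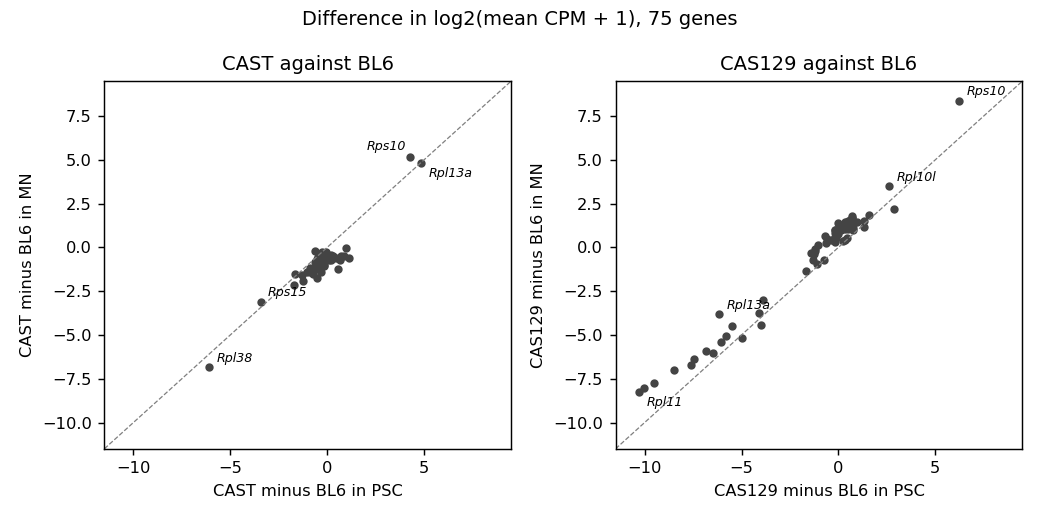
Difference in log2(mean CPM + 1) between CAST and BL6 (left) and between CAS129 and BL6 (right), in PSC (x axis) and in MN (y axis), with 1 point per ribosomal protein gene, 75 in each panel, and a dashed line of equality. Against BL6, CAST lies far from 0 for Rps10, Rpl13a, Rpl38 and Rps15, and CAS129 for Rps10 and Rpl11. The points of Rps10, Rpl11 and Rpl13a in the CAS129 panel lie above the line. Rpl11, Rpl13a, Rpl27 and Rps27 have no count in the hybrids, so their points in that panel only repeat the BL6 level.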

How the data were processed

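Polyadenylated RNA of 20 libraries was analysed. The authors deposited raw counts of reads per gene. Reads were aligned with STAR to GRCm38 (mm10), per the submitters' processing notes; the sources used here do not state the counting program, its annotation or its strand setting. Counts whose reads match near copies can be low or shared. Of the columns, 8 match no sample and were left out, and 7 samples were not analysed here. Names, positions and transcript starts came from GENCODE M21 (27031 identifiers matched, 40 did not). Promoter and protein sequences were not used here, and some genes are not reported here.

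Levels are CPM with TMM factors over the 20 libraries. Changes were tested with edgeR 4.0.16 (quasi-likelihood, TMM, R 4.3.3, limma 3.58.1), over all genes with at least 1 CPM in at least 2 libraries of a fit, with Benjamini-Hochberg adjustment over all genes tested and a threshold of 0.05. The SE is the log2 fold change divided by the root of the F statistic. Fits by genotype or within a cell type share 1 spread estimate over their groups. Where a group had no count, the bound takes 3 counts over the group as its floor. Alternatives were RLE and upper-quartile scaling, TMM without the ribosomal protein genes, DESeq2 1.42.0, no filter, a filter of 5 CPM, leaving out genes at 0 in every hybrid library, a replicate block and leaving out each library. The calling step was tested on simulated data. Near copies were found with BLAST+ 2.17.0, and figures made with matplotlib 3.10.9. Libraries of a group differed by more than sampling noise (over 28 pairs, chi-square per degree of freedom was at least 2.96).

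Named genes were, for MN against PSC, the 5 called genes with the largest rise and fall, for other comparisons the 3 with each, paralog pairs and a fixed set of stalk, checkpoint and disease genes, the genes at 0 in all hybrid libraries, and for other lists the 2 called genes with the highest mean. Members and lists were chosen with earlier results of these data known.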

Additional observations from a re-analysis of the deposited data

Results flagged for a closer look

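Among the 7 BL6 MN libraries, Rps10 was at 2.894 CPM in replicate 6, above the others (lowest 1.136 and median 1.373 CPM), and Rps19 was at 198.7 CPM in replicate 2, below the others (median 333.6 and highest 378.5 CPM). These were 2 of 28 sets of values tested for a library far from the rest, and chance flags about 1 in 20.

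Between CAS129 and BL6 the MN against PSC change differed for Rps10 by 2.77 on the log2 scale (SE 0.42, edgeR adjusted p = 0.00041), for Rps21 by 1.42 (SE 0.40, edgeR adjusted p = 0.02), for Rps26 by 1.37 (SE 0.42, edgeR adjusted p = 0.031) and for Rpl36 by 1.25 (SE 0.41, edgeR adjusted p = 0.041). For Rpl10l it differed by 3.55, which is a description with no test, since this gene entered through its level in CAS129 PSC. A positive difference was called for 13.7% of all genes tested. In BL6, Rps10 was at only 15.8 and 31.4 CPM in PSC and 1.14 to 2.89 CPM in MN.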

How the results depend on the processing

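Of 3930 pairs of a named gene and an alternative, 3798 kept their side of the threshold, 77 lost the call, 52 gained one and 3 reversed. A change of direction where neither fit made a call was counted as kept. Without BL6 PSC replicate 1 the BL6 change turned to 2.64 for Rpl22l1 and 1.3 for Rpl39 (-1.41 and -1.42 without replicate 2), and without CAS129 PSC replicate 2 the CAS129 change of Rpl22l1 turned to 3.01 (-1.33 without replicate 1); the cause was not tested. The number of genes higher by the CAS129 minus BL6 difference was 2 with RLE, 3 with upper-quartile scaling, and 4 each with DESeq2, without a filter and without genes at 0 in the hybrids. Higher in CAS129 than in CAST PSC were 11 with upper-quartile scaling, 12 with DESeq2 and 14 without a filter, with 965 genes of the whole table called without genes at 0 in the hybrids. For CAST against BL6 PSC, DESeq2 called 2222 genes of the table and 6 ribosomal protein genes lower, no filter 2682 and 7. For CAST against BL6 MN, DESeq2 called 29 lower. Without genes at 0 in the hybrids, which leaves out Rpl13a, 1 gene was higher in CAST PSC, in CAST MN and in 129 MN than in BL6. The share of counts on the TMM-scaled size was 1.566% in CAST MN, 9.537% in CAS129 PSC and 1.688% in 129CAS MN, and 1.575% in CAST MN without the genes at 0 in the hybrids.

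Deviations of same-numbered libraries correlated at 0.35 between BL6 and CAST PSC, 0.46 between CAST and CAS129 PSC and 0.57 between BL6 MN and 129 MN replicates 2, but not in every pair (-0.16 to 0.57 over 31 pairs), and the labels name no shared source, so the numbers were not taken to pair the samples. With the replicate block the BL6 median was -2.16, that of 129 against BL6 MN -0.62 with 29 lower, and that of CAS129 against BL6 MN 0.94. The block gave 5 lower for CAST against BL6 PSC, 7 lower and 766 genes of the table for CAST against BL6 MN, 11 higher for CAS129 against BL6 PSC, 14 higher for CAS129 against CAST PSC, and 1886 genes of the table for the CAS129 minus BL6 difference.

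Leaving out each library in turn gave, for MN against PSC, medians of -1.97 to -1.67, and in BL6 -2.31 to -1.48 with 0 to 2 higher, and in CAS129 0 to 1 higher. For the CAS129 minus BL6 difference it gave 2 to 39 higher, 0 to 1 lower, medians of 0.19 to 1.19 and 1409 to 3664 genes of the table. For CAST against BL6 PSC it gave 2 to 9 lower, medians of -0.59 to 0.27 and 316 to 2105 genes of the table, and for CAST against BL6 MN 13 to 54 lower and 1550 to 3805 genes. For CAS129 against BL6 PSC it gave 4 to 6 higher, medians of -0.33 to 0.46 and 2132 to 3658 genes, and for CAS129 against CAST PSC 2 to 4 higher and 1112 to 1320 genes. For 129 against BL6 MN it gave 28 to 70 lower and 2764 to 6324 genes. With 2 PSC libraries a group, and 1 MN library of CAST and of 129CAS, single libraries set much of the precision.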
